A study of Homo sapiens with 4 samples.

Results

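Shelterin is the protein complex that coats the TTAGGG repeats at the ends of human chromosomes, and this report follows its 6 subunit genes TERF1, TERF2, TERF2IP, POT1, TINF2 and ACD together with the helicase gene RTEL1 and the telomerase gene TERT. These 8 genes were listed by name for their role at telomeres, at a time when earlier results of these data were known, and each was found under its identifier on a primary chromosome among the 63677 genes of the count files. Of the 8, 7 had enough reads to be among the 15398 genes tested, and TERT had none. The study asked what the chromatin protein HMGB1, which leaves the nucleus when cells enter senescence, does inside the nucleus, and for this purpose RNA-seq was performed on IMR90, human fetal lung fibroblasts, after RNA interference. The control group was transfected with a non-targeting siRNA (NTC) and the knockdown group with siRNAs against HMGB1, both with RNAiMAX and both for 72 h. Cells came from a pair of isolates, I90-10 (replicate 1) and I90-79 (replicate 2), each giving 1 control and 1 knockdown library, 2 libraries per group in all, and no repeat culture is named. All p-values below therefore measure the spread between these few libraries. The only manipulation was transient siRNA transfection; no gene was deleted and no transgene was added.

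Shelterin works through a division of labour. TERF1 and TERF2 (also named TRF1 and TRF2) bind the double-stranded repeats, POT1 binds the single-stranded overhang and is tethered by ACD (TPP1), TINF2 (TIN2) bridges the duplex binders to ACD, and TERF2IP (RAP1) is held by TERF2. TERF2 is known for folding the chromosome end into a loop and for keeping DNA damage kinases and end joining away from it, ACD for recruiting telomerase, and RTEL1 for unwinding the loop during replication. Telomerase extends the repeats with its reverse transcriptase TERT by copying a short template in its RNA subunit TERC, and most human fibroblasts are known to keep TERT silent, so that their telomeres shorten as they divide.

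The template is shown because it ties the repeat that shelterin binds to the enzyme that makes it. The window printed below, the template with its flanking bases, lies in TERC at chr3:169482785-169482811 (GRCh37, minus strand), inside the 541-base noncoding transcript. It is written 5′ to 3′ in DNA letters, with the 11 template bases, positions 46 to 56 of the transcript, in capitals:
TERC template: ttttttgtCTAACCCTAACtgagaagg

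The libraries held between 29861687 and 35317010 counted reads. The knockdown was seen in both isolates, with 5322 and 8734 HMGB1 reads in the control libraries of I90-10 and I90-79 and 461 and 589 in the knockdown libraries. HMGB1 fell by 3.59 on the log2 scale (SE 0.19, adjusted p = 0.0075 in the quasi-likelihood test of edgeR, Benjamini-Hochberg adjustment). Without knockdown replicate 1 or 2 its adjusted p was 0.0497 or 0.0324 by edgeR, above the threshold of 0.01, at a log2-fold change of −3.47 or −3.71. All 8 fibroblast markers (COL1A1, COL1A2, COL3A1, VIM, THY1, PDGFRA, DCN and LUM) were detected, with a summed expression between 18678 and 34453 CPM (read counts relative to library size, scaled by the TMM method). Of these, THY1 was called downregulated and LUM upregulated with the replicate block and neither without it. The 4 epithelial markers summed to 58.5 and 67.1 CPM in control and 78.4 and 98.4 CPM in knockdown libraries, carried by KRT8 and KRT18, with CDH1 at 1 read in all. The 3 endothelial markers found summed to 1.50 and 1.49 CPM against 4.32 and 3.39 CPM, with CDH5 at 0 reads, and KRT18 (log2-fold change 0.74) and VWF (1.57) were called upregulated with the replicate block only. The 4 leukocyte markers summed to at most 0.208 CPM in a library, with CD3E at 0 reads. The summed expression of 8 proliferation markers was 561 and 1003 CPM in the control and 590 and 750 CPM in the knockdown libraries, and none of the 8 passed the thresholds, while the replicate block called PCNA down- and TYMS upregulated. The part of these markers in the values below was not tested. In bulk RNA, fewer cells of a type and less RNA per cell cannot be told apart.

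A call of up- or downregulation needed an adjusted p below 0.01 together with a log2-fold change beyond 0.6 in either direction. None of the 7 tested members was called upon HMGB1 knockdown, where 31 of all 15398 genes were called (0.201%, 10 upregulated and 21 downregulated). By the unadjusted p of edgeR's test, 1 member, TERF2, was below 0.05, against 28.3% of all genes, and the same gene was the only member with an adjusted p below 0.05, against 8.44% of all genes. When the isolate entered the fit as a replicate block, 2235 genes (14.5%) and again 0 members were called; DESeq2 and RUVs followed by DESeq2 also called 0. The log2-fold changes of the 7 members ran from −0.16 to 0.57, with 4 above and 3 below 0. Their median absolute log2-fold change was 0.13, beside 0.33 for all tested genes. The knockdown and control libraries did not overlap for 3 members, above the control for TERF2 and RTEL1 and below it for TINF2, where 59.9% of all tested genes showed no overlap. In 4 of 7 members (57.1%) the change had the same direction in both isolates, compared to 78.3% of all tested genes.

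**Figure D1:**
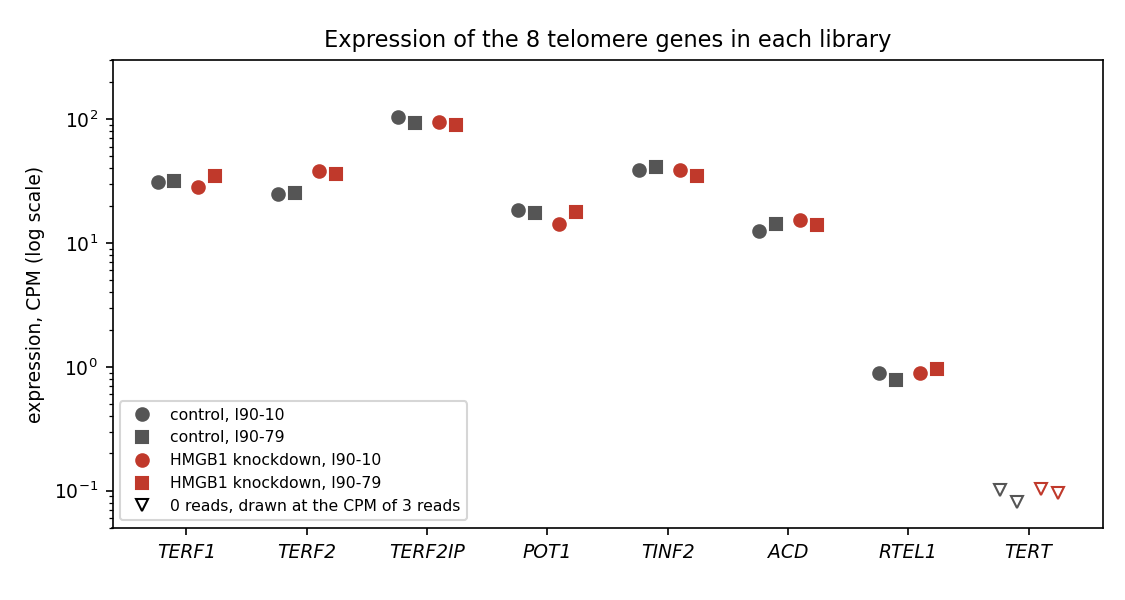
Expression of the 8 genes in CPM (log axis) in each of the 4 libraries; grey stands for control and red for HMGB1 knockdown, circles for I90-10 and squares for I90-79. TERF2 sits at 24.9 and 25.3 CPM in control and at 38.0 and 36.3 CPM in knockdown libraries, TERF1 and POT1 are spread more widely in the knockdown than in the control libraries, and open triangles mark the CPM that 3 reads would give for TERT, which had 0 reads.

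TERF2 (ENSG00000132604; chr16:69389464-69442474, minus strand) encodes the duplex binder that protects chromosome ends from being joined. It was counted 731 and 934 times in the control libraries of I90-10 and I90-79, and 1099 and 1134 times in the knockdown libraries of the same isolates. This corresponds to 24.9 and 25.3 CPM in control and 38.0 and 36.3 CPM in knockdown. Both knockdown libraries were thus above both control libraries, and the isolates lay close together within each group. The means were 25.1 ± 0.325 and 37.2 ± 1.23 CPM (SD, n = 2), a 1.48-fold difference or a log2-fold change of 0.57 (SE 0.12, 95% confidence interval 0.27 to 0.86, adjusted p = 0.0488 by edgeR). The log2-fold change was 0.61 in I90-10 and 0.52 in I90-79. With the replicate block it was again 0.57 (SE 0.11), with an adjusted p of 0.0050 by edgeR, and DESeq2 gave 0.57 with an adjusted p of 0.0091, so in these fits p passed the limit of 0.01 while the fold change stayed under 0.6. In other fits of all 4 libraries TERF2 passed neither limit. RUVs and DESeq2 gave 0.58 with an adjusted p of 0.0161. By edgeR the adjusted p was 0.0125 with no filter, 0.0481 with DESeq2 size factors and 0.0478 with at least 10 counts. Leaving out 1 library at a time gave log2-fold changes from 0.53 to 0.60 and adjusted p-values from 0.0796 to 0.199. Among all tested genes 29.3% had an absolute log2-fold change at least this large. Only 1.74% of its exonic bases overlap another gene.

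TERF1 (ENSG00000147601; chr8:73921099-73960357, plus strand) encodes the other duplex binder, known for smoothing the passage of replication forks through the repeats. Its counts were 908 and 1170 in control and 813 and 1083 in knockdown libraries, or 30.9 and 31.7 CPM against 28.1 and 34.7 CPM. The knockdown libraries lay on both sides of the control libraries, with I90-10 below and I90-79 above. Mean expression was 31.3 ± 0.593 CPM in control and 31.4 ± 4.61 CPM in knockdown (SD, n = 2), and the log2-fold change was 0.0040 (SE 0.15, 95% confidence interval −0.37 to 0.37, adjusted p = 0.989 by edgeR). Of all tested genes, 99.4% had a larger absolute change. Its sign was negative with the replicate block (−0.0019) and with RUVs and DESeq2 (−0.079). TERF1 shares 5.27% of its 50-base transcript pieces with other genes, among them TERF1P4, TERF1P5 and TERF1P7, each of which had at most 2 reads in a library.

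TERF2IP (ENSG00000166848; chr16:75681684-75795770, plus strand), the partner that TERF2 brings to the telomere, was the most abundant transcript of the group. It was counted 3065 and 3444 times in control and 2762 and 2792 times in knockdown libraries, that is 104 and 93.4 CPM and 95.6 and 89.3 CPM. The groups overlapped, since the knockdown library of I90-10 exceeded the control library of I90-79. Means of 98.8 ± 7.69 and 92.4 ± 4.40 CPM (SD, n = 2) gave a log2-fold change of −0.096 (SE 0.12, 95% confidence interval −0.39 to 0.20, adjusted p = 0.629 by edgeR). On the opposite strand KARS1, a lysyl-tRNA synthetase gene, overlaps 5.21% of the exonic bases of TERF2IP. KARS1 had 6982 and 8671 reads in control and 3562 and 3810 in knockdown libraries, and whether the counting used the strand is not given in the sources used here. The part of these reads in the TERF2IP values was not tested.

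TINF2 (ENSG00000092330; chr14:24708849-24711880, minus strand), the bridge between the duplex binders and ACD, had 1149 and 1500 reads in control and 1112 and 1095 in knockdown libraries. Its expression was 39.1 and 40.7 CPM in control and 38.5 and 35 CPM in knockdown. Both knockdown libraries lay below both control libraries, that of I90-10 by a small margin. The log2-fold change was −0.12 (SE 0.12, 95% confidence interval −0.42 to 0.18, adjusted p = 0.558 by edgeR), from means of 39.9 ± 1.12 and 36.8 ± 2.43 CPM (SD, n = 2).

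ACD and POT1 form the pair that covers the overhang. ACD (ENSG00000102977; chr16:67691415-67694713, minus strand) was counted 364 and 528 times in control and 444 and 435 times in knockdown libraries, or 12.4 and 14.3 CPM against 15.4 and 13.9 CPM. Its log2-fold change was 0.31 in I90-10 and −0.041 in I90-79, and 0.13 over all libraries (SE 0.16, 95% confidence interval −0.28 to 0.54, adjusted p = 0.636 by edgeR). POT1 (ENSG00000128513; chr7:124462440-124570037, minus strand) had 545 and 646 reads in control and 415 and 558 in knockdown libraries, or 18.5 and 17.5 CPM against 14.4 and 17.9 CPM. Here I90-10 was lower upon knockdown by 0.37 on the log2 scale and I90-79 differed by 0.027, so that the groups overlapped for both genes of the pair. On plain totals POT1 had 18.2 and 18.3 CPM in control and 13.9 and 17.9 CPM in knockdown libraries, without overlap. Over all libraries POT1 had a log2-fold change of −0.16 (SE 0.17, 95% confidence interval −0.59 to 0.26, adjusted p = 0.569 by edgeR). The means were 13.4 ± 1.37 and 14.6 ± 1.02 CPM for ACD and 18.0 ± 0.723 and 16.1 ± 2.47 CPM for POT1 (control and knockdown; SD, n = 2).

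RTEL1 (ENSG00000258366; chr20:62289163-62328416, plus strand) was counted only 26 and 29 times in control and 26 and 30 times in knockdown libraries, which is 0.884 and 0.786 CPM and 0.900 and 0.960 CPM. The knockdown libraries were just above the control libraries. Its log2-fold change of 0.16 had an SE of 0.34 and a 95% confidence interval from −0.71 to 1.03 (adjusted p = 0.803 by edgeR), so a difference of 0.6 in either direction was not detectable at this depth. RTEL1 is also the member whose counts are least certain. On the same strand the readthrough gene RTEL1-TNFRSF6B and TNFRSF6B cover 76.6% of its exonic bases, and 49.2% of its 50-base pieces occur in other genes. RTEL1-TNFRSF6B itself had 36 and 50 reads in control and 51 and 55 in knockdown libraries.

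TERT (ENSG00000164362; chr5:1253262-1295184, minus strand) had 0 reads in all 4 libraries. With 3 reads taken as the upper limit that a count of 0 allows, its expression was at most 0.102 and 0.0813 CPM in control and 0.104 and 0.0960 CPM in knockdown libraries, limits that cover counting error only. No fold change can be given. Its RNA partner TERC, whose template is printed above, had 4 and 5 reads in control and 5 and 3 in knockdown libraries and was too low for the test; it was picked after its values were seen. Mature TERC is not known to carry a long poly(A) tail, and the libraries were made from poly(A) RNA.

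With 1 library left out at a time, the small log2-fold changes of the tested members other than TERF2 moved by more than 1.5 times, and only that of TERF1 changed sign. TERF2IP ranged from −0.17 (without control replicate 2) to −0.017 (without control replicate 1), with −0.15 and −0.044 without knockdown replicate 1 and 2. TINF2 ranged from −0.19 to −0.048 (without knockdown replicate 1 and 2). POT1 lay at −0.016 without knockdown replicate 1 and at −0.32 without knockdown replicate 2. ACD ranged from 0.030 (without control replicate 1) to 0.24 (without control replicate 2), with 0.058 and 0.21 without knockdown replicate 1 and 2, and RTEL1 from 0.073 to 0.24 (without control replicate 2 and 1). None of these values was called.

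**Figure D2:**
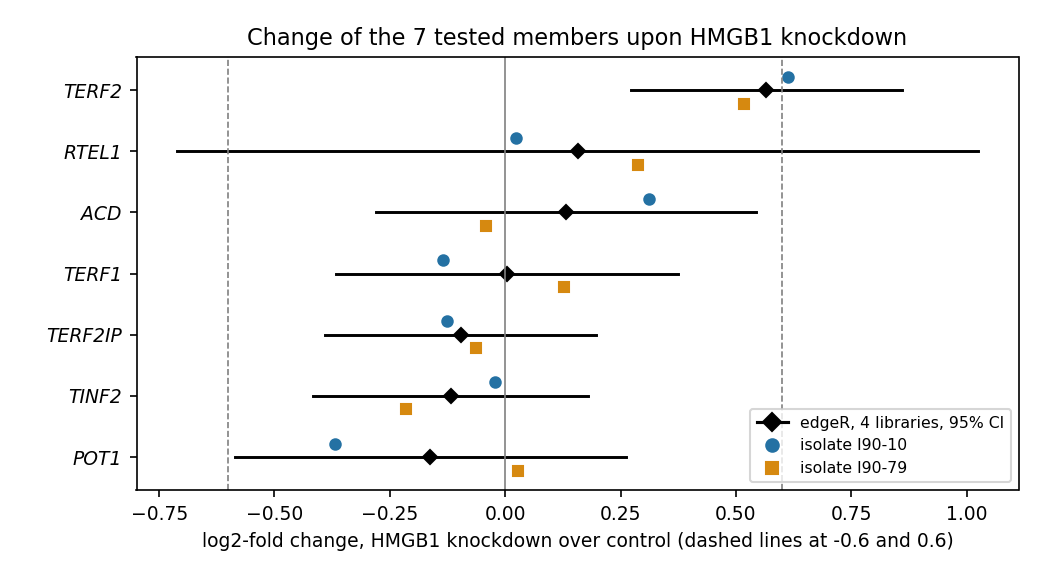
Log2-fold change of the 7 tested members, HMGB1 knockdown over control; black diamonds and bars give edgeR's estimate with its 95% confidence interval, blue circles I90-10 and orange squares I90-79. The TERF2 interval (0.27 to 0.86) lies above 0, the other 6 intervals include 0, and the isolates lie on opposite sides of 0 for ACD, TERF1 and POT1.

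Levels of different genes were compared as CPM per kb of counted exon. This length joins all annotated exons of a gene, 8.831 kb for TERF1 and 5.621 kb for TERF2, and can exceed that of the transcripts made. The order of genes with near levels therefore depends on the annotation. The only other length tried was the exon that no other gene overlaps, which rests on the same annotation. With it the means kept the order given below in both groups. In control TERF2 then had 4.54, ACD 4.22, TERF1 3.55 and POT1 3.12 CPM per kb. In control libraries TERF2IP had 29.2 ± 2.28 and TINF2 14.7 ± 0.414 CPM per kb, followed by TERF2 with 4.46 ± 0.0579, ACD with 4.15 ± 0.425, TERF1 with 3.55 ± 0.0671, POT1 with 3.06 ± 0.123 and RTEL1 with 0.133 ± 0.0110 (SD, n = 2). Only the neighbours TERF2 and ACD overlapped between libraries. In knockdown libraries the order was the same, with 27.4 ± 1.30, 13.6 ± 0.896, 6.61 ± 0.219, 4.55 ± 0.317, 3.55 ± 0.522, 2.73 ± 0.419 and 0.148 ± 0.00677 CPM per kb, and none of these neighbours overlapped. RTEL1 stayed the lowest detected member when only the 1.473 kb of exon that no other gene covers was taken as its length, with 0.567 and 0.631 CPM per kb in control and knockdown, a choice made after the data had been seen. Against all tested genes, 14.9% had a higher CPM than TERF2IP and 34.7% than TINF2, whereas POT1 and ACD lay below the median of 18.6 CPM and 86.6% of genes were above RTEL1.

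The balance of mRNA among the 6 shelterin genes, not of their proteins, was followed through sums and ratios per kb. Their size depends on the counted exon lengths, which were the same in every library. The summed level of the 6 shelterin genes was 60.2 and 58.2 CPM per kb in control and 59.6 and 57.1 in knockdown libraries, so the groups overlapped (means 59.2 ± 1.43 and 58.4 ± 1.79, SD, n = 2; exact two-sided permutation p = 0.667). TERF2 made up 7.35% and 7.75% of this sum in control and 11.3% and 11.3% in knockdown libraries. Its ratio to TERF1 was 1.26 and 1.25 in control and 2.12 and 1.65 in knockdown libraries, and its ratio to TERF2IP 0.143 and 0.163 against 0.239 and 0.244. For each of these 3 measures of TERF2 both knockdown libraries exceeded both control libraries, and the exact two-sided permutation p was 0.333, the smallest that 2 libraries against 2 can give. The ratio of TINF2 to TERF1 overlapped between the groups, at 4.12 and 4.17 against 4.45 and 3.29 (exact permutation p = 1), as did that of ACD to POT1, at 1.22 and 1.50 against 1.96 and 1.43 (exact permutation p = 0.667). The share of TERF2IP was 51.3% and 47.5% in control and 47.4% and 46.3% in knockdown libraries (exact permutation p = 0.333), with only a narrow gap between the groups. The permutations moved libraries between groups without regard to the isolate, so they did not use the pairing. These 7 comparisons share their libraries, and no adjusted value could fall below 0.333.

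**Figure D3:**
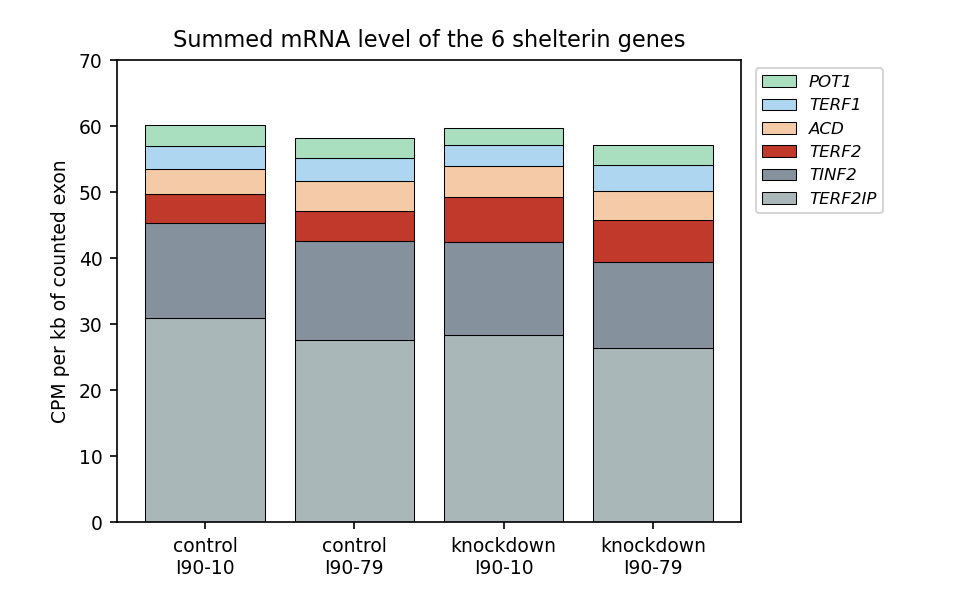
Stacked bars of the level of the 6 shelterin genes in CPM per kb of counted exon (from 0), 1 bar per library. The bars reach 57.1 to 60.2 in all 4 libraries, and the red TERF2 segment takes 7.35% and 7.75% of the control and 11.3% of each knockdown bar.

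Likeness between genes was measured over the 4 libraries as the root mean square difference of log2 CPM, centred on each gene's mean, among 13101 genes with at least 1 CPM. TERF1 and POT1 were nearest to each other among the members (0.094), and so were TERF2IP and TINF2 (0.079). TERF2 stood apart, since its nearest member was RTEL1 at 0.22, and it was the farthest member from TERF1, TERF2IP, POT1, TINF2 and RTEL1 (0.22 to 0.39). These distances come from the same libraries as the log2-fold changes and are no separate evidence on TERF2. RTEL1 itself had only 26 to 30 reads in a library. Across all genes the nearest to TERF2 were TEX264 (0.0030) and MFSD13A (0.013), those nearest to TERF1 POLR3B (0.0081) and JPX (0.0093), those nearest to POT1 SEPTIN10 (0.020) and MTO1 (0.020), and those nearest to TINF2 ZNF256 (0.0053) and ENSG00000241978 (0.0088). TERF2IP was nearest to TECPR2 (0.0091) and ZNF514 (0.013), ACD to ZSWIM1 (0.0068) and MEF2D (0.0092), and RTEL1 to AP5Z1 (0.0090) and ASB7 (0.014). With 4 libraries and this many genes, every tested member had such near neighbours.

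The genes that build telomerase, fill in the chromosome end or modify shelterin were read from 5 lists with 47 genes, of which 45 were tested. None was called in the fit without the isolate, and 22 had a log2-fold change above and 23 below 0, with a median of −0.046 beside −0.0054 for all tested genes. An unadjusted p below 0.05 was found for 10 of the 45 (6 above and 4 below 0), where the share among all genes was 28.3% by edgeR. With the replicate block 3 were called up- and 2 downregulated, 5 of 45, where 14.5% of all genes were called.

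The telomerase holoenzyme and assembly list had 9 of 10 tested genes above 0, with a median of 0.18, where 7642 of all 15398 tested genes were above 0. Only 6 of the 10 (60%) changed in the same direction in both isolates, against 78.3% of all tested genes. In this list 0 genes were called with or without the replicate block. NOP10, a core protein of the telomerase RNA particle, had 103 and 117 CPM in control and 150 and 148 CPM in knockdown libraries and a log2-fold change of 0.44 (SE 0.12, adjusted p = 0.0859 by edgeR). For PARN, the nuclease that trims TERC, and NAF1, which helps to assemble the particle, log2-fold changes were 0.24 and 0.38 (adjusted p = 0.213 and 0.255 by edgeR). Of the CST complex, which binds the overhang and steers its fill-in, STN1 had a log2-fold change of 0.28 and CTC1 of −0.25 (adjusted p = 0.276 and 0.434 by edgeR), with both knockdown libraries of STN1 above and both of CTC1 below the control libraries. TEN1, the third subunit, had 1 read in all 4 libraries together, and 76.3% of its exonic bases overlap other genes, chiefly the readthrough gene TEN1-CDK3, with 5 and 24 reads in control and 25 and 19 in knockdown libraries.

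Among regulators of shelterin and telomerase, TNKS2 (chr10:93558069-93625033, plus strand), a tankyrase that marks TERF1 with poly(ADP-ribose), was counted 2884 and 3491 times in control and 4842 and 5616 times in knockdown libraries. Both knockdown libraries were far above both control libraries. Its log2-fold change was 0.85 (SE 0.11, adjusted p = 0.0195 by edgeR), and with the replicate block it was called upregulated (0.85, adjusted p = 5.0e-04 by edgeR). TNKS, the other tankyrase, had a log2-fold change of −0.048 (adjusted p = 0.844 by edgeR) and was picked after its values were seen. NEK7, a mitotic kinase also known as a partner of the NLRP3 inflammasome, went from 41.0 and 45.7 CPM to 64.6 and 87.1 CPM, with a log2-fold change of 0.81 (SE 0.18, adjusted p = 0.0543 by edgeR), and was called with the replicate block (0.79, adjusted p = 0.0012 by edgeR). FBXO4, an F-box protein that targets TERF1 for degradation, had 162 and 183 reads in control and 103 and 100 in knockdown libraries, a log2-fold change of −0.63 that passed in neither fit (adjusted p = 0.140 without and 0.0429 with the replicate block, by edgeR).

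Of the end processing and fork factors, DCLRE1B (Apollo), the nuclease that TERF2 brings to the telomere, had 350 and 462 reads in control and 224 and 255 in knockdown libraries. Every knockdown library was below every control library, and the log2-fold change was −0.62 (SE 0.16, adjusted p = 0.0800, and 0.0144 with the replicate block, by edgeR). SAMHD1, which breaks down deoxynucleotides and acts at broken and stalled DNA ends, had 52.8 and 53.1 CPM against 83.1 and 71.7 CPM and a log2-fold change of 0.55 (adjusted p = 0.0579 by edgeR), and with the replicate block its adjusted p was 0.0058 with a log2-fold change of 0.54 (edgeR), under the limit on size. NBN, a subunit of the MRE11 complex, was called upregulated with the replicate block (0.63, adjusted p = 0.0022 by edgeR) and not without it (0.62, SE 0.20, adjusted p = 0.124). Its values were 43.5 and 59.2 CPM in control and 69.3 and 88.8 CPM in knockdown libraries, so the isolates differed within each group.

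In the list of telomeric chromatin and repeat binding, 8 of 11 genes lay below 0, with a median of −0.19, where 7756 of all 15398 tested genes were below 0. The isolates had the same direction for 9 of the 11 (81.8%), against 78.3% of all tested genes. CBX5, which encodes the heterochromatin protein HP1α, had 125 and 129 CPM in control and 79.7 and 81.2 CPM in knockdown libraries and a log2-fold change of −0.66 (SE 0.10, adjusted p = 0.0282 by edgeR). HMBOX1, a protein that binds the duplex repeat directly, had 18.2 and 20.3 CPM against 11 and 14 CPM and a log2-fold change of −0.62 (SE 0.18, adjusted p = 0.0974 by edgeR). With the replicate block both were called downregulated (adjusted p = 0.0013 and 0.0082 by edgeR). DAXX, the histone chaperone that works with ATRX, had a log2-fold change of 0.40 (adjusted p = 0.114 without and 0.0226 with the replicate block, by edgeR).

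**Figure D4:**
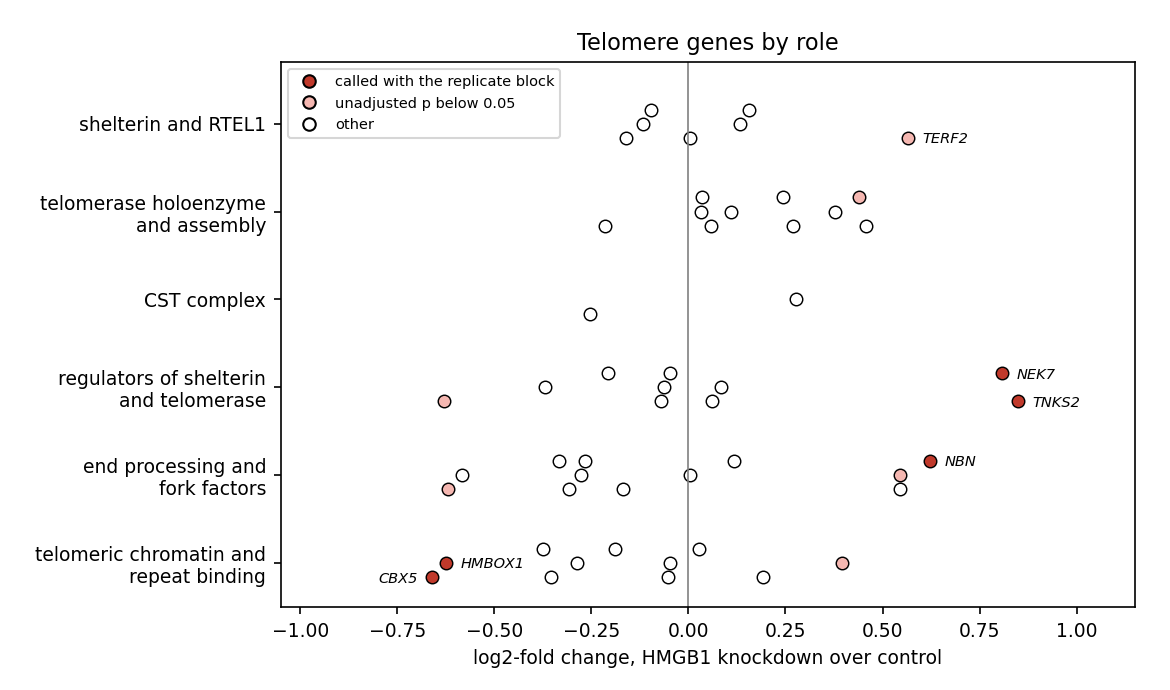
Log2-fold change, HMGB1 knockdown over control, of every tested gene of the 6 lists, 1 row per list with points set apart vertically for legibility only; dark red marks genes called with the replicate block and pale red an unadjusted p below 0.05 without it. The dark points are NEK7, TNKS2 and NBN at 0.62 to 0.85 and CBX5 and HMBOX1 at −0.66 and −0.62, while the members lie between −0.16 and 0.57.

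The 3′ UTRs were also searched for the word GCAGTT, on the transcript strand only, a word that had been picked in an earlier analysis of the same libraries because genes holding it were lower upon knockdown. Its counts here are thus a description and no separate evidence. Among 12359 genes that were tested and had a 3′ UTR of 100 bases or more, 36.2% held the word, with a median log2-fold change of −0.16 and a median UTR of 2839 bases, and those without it had 0.069 and 886 bases. Genes with the word thus had the longer UTRs as well. None of the 8 members held it, in 3′ UTRs of 94 bases (ACD) to 1986 bases (TERF1), and this includes TERF2 with 1331 bases. Of 46 other listed genes with an annotated 3′ UTR 23 held it. These counts have no limit on length or testing, unlike the share of 36.2%. ACD and the untested TERT are outside the 12359 genes, as are WRAP53 (16 bases), ZBTB48 (68 bases) and the untested TEN1. CBX5 had 5 copies in 10813 bases, and DCLRE1B, SAMHD1, TNKS2, NBN and HMBOX1 had 1 copy each, while the siRNA target HMGB1 had 3; the TNKS2 copy, at chr10:93625157-93625180, lies past the end of the gene as it was counted. SAMHD1, TNKS2 and NBN had positive log2-fold changes and CBX5, DCLRE1B, HMBOX1 and HMGB1 negative ones. Windows of some of the genes on both sides are shown to let the copies be compared, with the word in capitals (GRCh37; CBX5 at chr12:54634422-54634445 and chr12:54630316-54630339, minus strand; DCLRE1B at chr1:114454844-114454867, plus strand; SAMHD1 at chr20:35519907-35519930, minus strand; TNKS2, plus strand):
CBX5, copy 1: gtgttcataGCAGTTatgtctcct
CBX5, copy 2: cagtgtattGCAGTTtcatgctac
DCLRE1B: gcccacactGCAGTTttgaagata
SAMHD1: acaaagtctGCAGTTagagccaaa
TNKS2: ataaagaatGCAGTTtgaagtttg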

How the data were processed

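RNA was isolated from IMR90 of both isolates, poly(A) RNA was made into TruSeq libraries, and, per the labels and the submitters' processing notes, the authors mapped reads to hg19 (GRCh37) with STAR and counted them per gene with featureCounts; the deposited values are raw counts without normalization. The versions of these tools, the strand setting and whether a read pair was counted once are not given in the sources used here. Their own testing used DESeq2 after RUVs normalization.

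Groups were taken from the labels. A symbol was found for 55665 of 63677 genes and for 83 of 84 listed symbols (not for PECAM1). Counts were tested in R 4.3.3 with edgeR 4.0.16 (limma 3.58.1): filterByExpr, TMM scaling (factors 0.968 to 1.04), the quasi-likelihood test over all 4 libraries without a term for the isolate, and Benjamini-Hochberg adjustment over 15398 genes. CPM values computed from the deposited counts are TMM-scaled. The floor was set at 3 counts, for a gene that did not exceed it in either library of a group. The replicate numbers mark the isolates and so pair the libraries; the difference between replicates 2 and 1 had a correlation of 0.42 between control and knockdown over 15345 genes, and the isolate was added as a replicate block in a further fit. Other alternatives were DESeq2 1.42.0, RUVs with 1 factor and DESeq2, size factors in edgeR, no filter, at least 10 counts in every library, an adjusted p below 0.05 alone, and leaving out each library. The fits were tested on simulated data.

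The members and lists were chosen with earlier results of these data known. The text names all members and, of each other list, the 3 genes with the smallest p, any gene called with or without the block, and any gene at the floor. Calls under other alternatives had no place in this rule. Of the 4 list genes called with RUVs and DESeq2, 2 up- and 2 downregulated, only TNKS2, NEK7 and CBX5 are named. Gene positions and lengths come from the files, and 3′ UTRs, transcript pieces and the TERC sequence from GENCODE 44 lifted to GRCh37.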

Additional observations from a re-analysis of the deposited data

Results flagged for a closer look

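For 3 members the knockdown and control libraries differed in opposite directions in the isolates. The log2 change in I90-10 minus that in I90-79 was −0.26 for TERF1, −0.40 for POT1 and 0.35 for ACD. By TMM-scaled CPM, TERF1 and POT1 were lower upon knockdown in I90-10 and higher in I90-79, and ACD was higher in I90-10 and lower in I90-79. The changes in I90-79 were near 0 for POT1 (0.027) and ACD (−0.041). On plain totals POT1 had 18.3 CPM in control and 17.9 CPM in knockdown of I90-79, so it was lower in both isolates. With 1 library per isolate and group these differences were not tested.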

How the results depend on the processing

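Of 220 values of 22 named genes under alternatives, 198 kept their direction and their side of the thresholds. A further 15 passed them (TNKS2, NEK7, NBN, CBX5 and HMBOX1), 2 no longer did (HMGB1, above) and 5 changed sign, all of TERF1. These were −0.079 with RUVs, −0.0026 with at least 10 counts and −0.0019 with the replicate block. The others were −0.017 without control replicate 1 and −0.15 without knockdown replicate 2. Without knockdown replicate 1 TERF1 stayed positive, at 0.14. No member was called under any alternative except 1, TERF2, with an adjusted p below 0.05 and no limit on size. Of the other telomere genes 0 were called with edgeR, with its other size factors, with at least 10 counts and with any library left out, against 3 with DESeq2, 4 with RUVs and DESeq2, 4 with no filter, 5 with the replicate block and 2 with an adjusted p below 0.05 alone. Over all genes 31 were called, against 1546, 1592, 2393, 2235 and 1299 in the same order, and 0 to 642 with 1 library left out: 299 and 642 without control replicate 1 and 2, and 0 without either knockdown replicate. CPM on plain totals moved 5 of 32 values by more than 1 SD and none by more than 4.42%. The cause of these differences was not tested. The replicate block changed no call of a member. Depth limits RTEL1 and TERT most. Replicates of 2 per group allow no test for outlying libraries.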
